A study of Mus musculus with 16 samples.

Results

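The heme synthesis genes described here are *Alas1*, *Alas2*, *Alad*, *Uros*, *Urod*, *Cpox*, *Ppox* and *Fech*, which encode enzymes of the pathway, and *Fam210b*, which encodes a mitochondrial membrane protein. They were picked by symbol from general knowledge of the pathway, and all 9 were found among the 15386 genes of the RNA-seq table and among the 13490 genes of the m6A table. In the RNA-seq, 9 of the 9 were among the 11979 genes tested. In the m6A capture, 8 of the 9 were among the 11447 genes tested, and *Alas2* had too few counts to be tested.

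Heme is made by a chain of enzymes that starts and ends in the mitochondrion. Glycine and succinyl-CoA are joined by aminolevulinate synthase, which exists as a form used in all tissues (*Alas1*) and an erythroid form (*Alas2*). Cytosolic enzymes, among them *Alad*, *Uros* and *Urod*, then build the porphyrin ring, *Cpox* and *Ppox* oxidize it back in the mitochondrion, and *Fech* inserts the iron. In erythroid cells the pathway is turned up as hemoglobin is made, with *Alas2* as its entry step, and *Fam210b* is known for helping mitochondria of these cells take up and use iron.

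The cells came from bone marrow of C57BL/6 mice, young adults of both sexes, and were sorted as CFU-E, the erythroid progenitors that form small red colonies. CFU-E were live, lineage-negative cells without CD16/32, CD41, CD34 and Sca1 that carried Kit and CD71. RNA-seq compared 3 libraries labelled control CFU-E with 3 libraries whose label reads *Mettl3*-deficient CFU-E Kit-lo, called Kit-lo libraries from here on. The Kit-lo cells are the subset with very little Kit on the surface, taken from *Mettl3* fl/fl mice that carry EpoR-tdTomato-Cre on one allele, a Cre driven from the erythropoietin receptor locus that recombines in erythroid cells and in macrophages of erythroblastic islands. The labels of the control samples say no more than control, and the study's supporting values head them as EpoR-tdTomato-Cre carriers. *Mettl3* encodes the catalytic subunit of the enzyme that writes m6A, a methyl mark on adenosines of mRNA. The groups differed in both genotype and Kit gate, so these cannot be told apart. In a second experiment, RNA of control CFU-E was captured with an antibody to m6A in 2 IP libraries and compared with 2 input libraries, and none came from *Mettl3*-deficient cells.

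Library totals ran from 17429262 to 21329242 counts in the RNA-seq and from 19421059 to 37142742 in the m6A capture. In control CFU-E, *Mettl3* mRNA was at 115 to 130 CPM (a gene's share of its library's counts, after TMM scaling between libraries). It was at 108 to 127 CPM in the Kit-lo libraries, with a log2 fold change of -0.07 (SE 0.10, edgeR adjusted p = 0.63). The deletion was thus not visible in these counts per gene, and the group is named by its label. For erythroid cells of the knockout mice, the paper reports loss of *Mettl3* mRNA by qRT-PCR, loss of its protein and less m6A. Counts per gene do not tell which exons were read. *Tox4*, a gene of the other strand, covers 18.4% of the exonic sequence of *Mettl3*. Whether either bears on the unchanged counts was not tested. *Kit* was 10.8-fold lower in the Kit-lo libraries (edgeR adjusted p = 4.3e-07). All 9 erythroid markers were tested in the RNA-seq and 5 were called higher and 1, *Kit*, lower. Among those higher were the globin genes *Hba-a1* (32.6 ± 4.64 CPM in control and 1036 ± 226 CPM in Kit-lo, SD, n = 3) and *Hbb-bs* (3.94 ± 0.759 and 448 ± 161 CPM) and the membrane exchanger *Slc4a1* (1.85 ± 1.15 and 288 ± 80.4 CPM). Summed levels of macrophage markers (10 of 12 with values) ran from 23.0 to 26.8 CPM in control and from 13.2 to 16.5 CPM in Kit-lo, with 2 of 6 tested markers lower. Granulocyte and monocyte markers (11 of 12 with values) summed to 26.0 to 39.7 and 18.3 to 30.3 CPM, with 1 of 5 tested higher and 1 lower. Megakaryocyte markers (5 of 8) summed to 110 to 133 and 108 to 163 CPM, with 2 of 5 tested higher, and lymphocyte markers (6 of 8) to 2.98 to 3.58 and 2.62 to 4.14 CPM. The part of these markers in the results was not tested.

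The RNA-seq comparison asked how the pathway stood in the Kit-lo libraries. *Alas2*, *Uros* and *Fam210b* rose there, which is 3 of 9 members (33.3%) by a fold of at least 1.5 and an edgeR adjusted p under 0.05. Over all genes tested, 12.1% were called higher and 9.83% lower by that rule. No member was called lower (0 of 9 by edgeR, 0 by DESeq2, and 1 at an unadjusted p under 0.05). With the adjusted p alone, 8 members were higher (17.6% of all genes) and *Alas1* was lower (16.9% of all genes). On leaving out each control library, *Alas1* (edgeR adjusted p = 0.086 to 0.14), *Alad* (0.072 to 0.11) and *Ppox* (0.08 to 0.14) did not pass it. *Cpox* missed it without the control library numbered 2 or 3 (edgeR adjusted p = 0.059 and 0.064). *Urod* missed it without the control library numbered 1 (edgeR adjusted p = 0.079). *Alas1* also missed it with DESeq2 size factors (0.06) and library size only (0.081), and without the Kit-lo library numbered 2 its log2 fold change was -0.19 (edgeR adjusted p = 0.18). The libraries of both groups did not overlap for 7 members that were higher in Kit-lo, against 23.5% of all genes, and for 1 that was lower, against 24.0% of all genes, and they overlapped for *Ppox*. The median log2 fold change of the members was 0.47, and that of all genes tested was 0.01. The summed level of the 9 genes ran from 1947 to 1971 CPM by library size in control CFU-E and from 2768 to 3010 CPM in the Kit-lo libraries. In bulk samples, fewer cells of a type and less RNA per cell cannot be told apart.

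**Figure D1:**
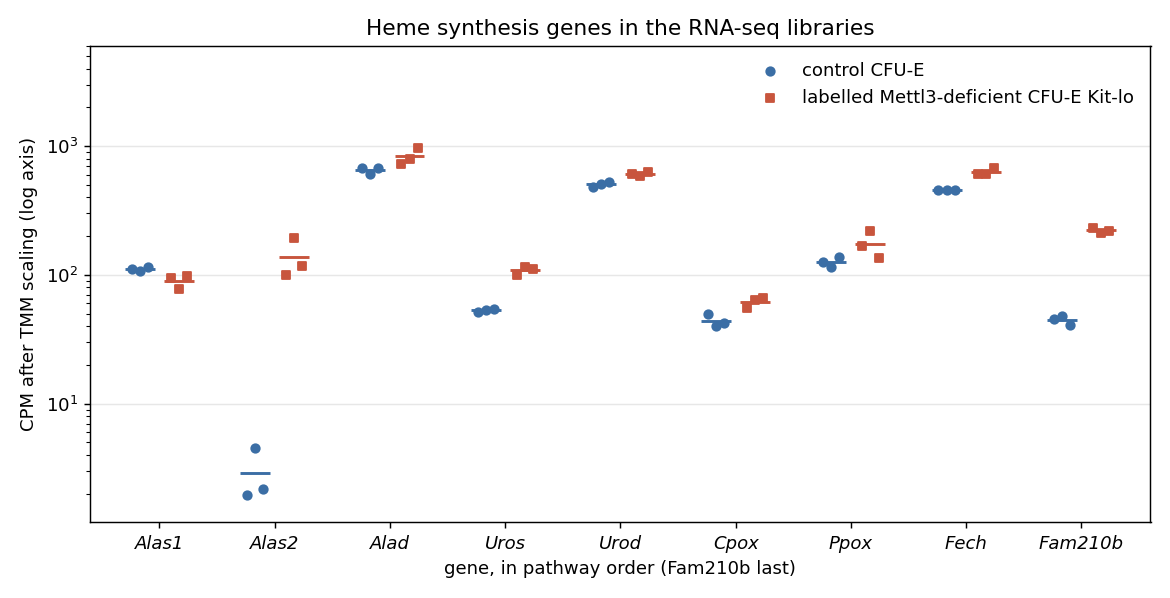
CPM after TMM scaling on a log axis for the members in pathway order. Each point is 1 library (3 of control CFU-E, 3 with the label Kit-lo) and each bar the group mean. *Alas2* lies between 1.96 and 4.52 CPM in control and between 99.0 and 193 CPM in Kit-lo, while the groups of *Ppox* overlap.

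*Alas2*, the erythroid aminolevulinate synthase, showed the largest change of the members. Its gene is at chromosome X, 150547375 to 150570638, plus strand (GRCm38). Counts of 41, 79 and 38 in control CFU-E stood against 1905, 3983 and 2260 in the Kit-lo libraries, or 1.96, 4.52 and 2.18 CPM against 99.0, 193 and 118 CPM. Every Kit-lo library was far above every control library, and within each group the replicate numbered 2 was the highest. In erythroblasts, a later stage, the paper reports lower *Alas2* and *Fech* mRNA in *Mettl3*-deficient cells by qRT-PCR. Those cells and that method differ from the libraries compared here, and erythroblasts were not analysed. The log2 fold change was 5.58 (SE 0.35, edgeR adjusted p = 4.1e-06), a 47.8-fold difference, and ranked 23 from the top of the 11979 genes tested. Of the exonic bases of *Alas2*, 15.5% overlap *Apex2* or *Mir3620* on the opposite strand, and the strand setting of the counting is not given in the sources used here.

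*Alas1*, the form used in all tissues, did not share this rise. The gene, on the minus strand of chromosome 9 (106233455 to 106248654), was at 112, 108 and 114 CPM in control CFU-E and at 94.0, 77.4 and 98.2 CPM in the Kit-lo libraries. The Kit-lo libraries were all below the control libraries, but the change was small, with a log2 fold change of -0.31 (SE 0.11, edgeR adjusted p = 0.049), a fold below the threshold of 1.5. *Alas1* and *Alas2* share 0 stretches of 31 bases in their annotated transcripts, so no stretch of that length is common to both.

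Set against each other within a library, the 2 synthases were far apart in control CFU-E and at similar levels in the Kit-lo libraries. Per transcript length (TPM, a gene's share of its library after division by the mean length of its annotated coding transcripts), *Alas1* stood at 92.2 to 94.8 TPM and *Alas2* at 1.57 to 3.65 TPM in control CFU-E. In the Kit-lo libraries *Alas1* stood at 70.5 to 85.7 TPM and *Alas2* at 85.1 to 166 TPM. *Alas2* thus made up 1.63%, 3.81% and 1.77% of the sum of both in control CFU-E and 49.8%, 70.2% and 53.1% in the Kit-lo libraries. The log2 ratio of *Alas2* to *Alas1* was -5.46 ± 0.69 in control and 0.47 ± 0.67 in Kit-lo (SD, n = 3), a difference of 5.93. The ranges did not overlap, and the two-sided exact permutation test gave p = 0.1, the smallest that 3 against 3 libraries allow.

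**Figure D2:**
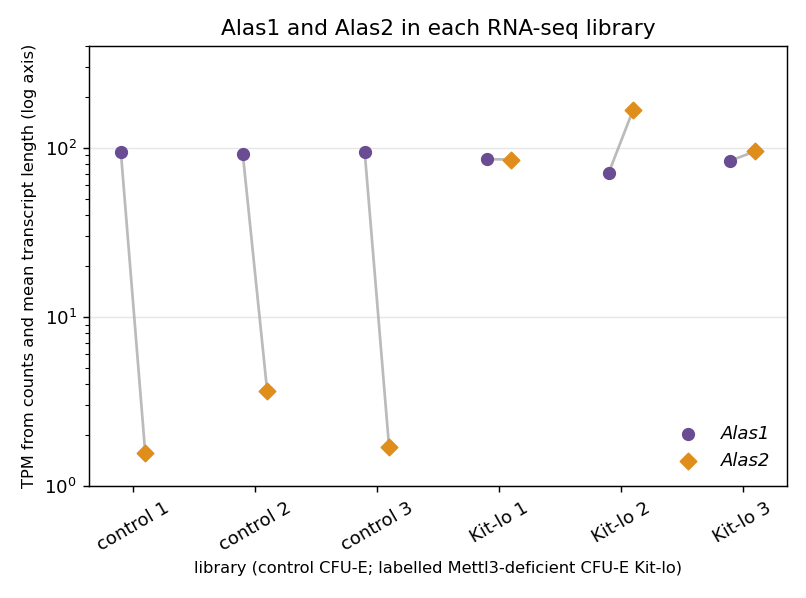
TPM of *Alas1* (circles) and *Alas2* (diamonds) on a log axis in each RNA-seq library, with a line joining both genes of a library. *Alas2* makes up 1.63% to 3.81% of their sum in the 3 control CFU-E libraries and 49.8% to 70.2% in the 3 Kit-lo libraries.

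The genes nearest in pattern to *Alas2* over the 6 RNA-seq libraries, by the root mean square difference of centred log2 CPM among the 6929 genes whose average log2 CPM reached 4, were *Hba-a2* (0.38), *Hba-a1* (0.55) and *Aldh3b2* (0.58). *Hba-a1* and *Hba-a2* are near-identical alpha-globin genes, whose reads the counting may split. Among the nearest to *Alas1* were *Prpf8* (0.04) and *Nifk* (0.05). The measure is a description over 6 libraries that share 1 contrast.

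Erythroid promoters often carry GATA words, the binding sites of the transcription factor Gata1. The 250 bases before the annotated starts of 8 of the 9 members (RefSeq, GRCm38.p6) were searched on both strands for the word AGATAA, the word TGATAA, the word AGATAG and the word TGATAG, and 3 of their 11 windows (27.3%) held a word (those of *Alas2* and *Cpox* and 1 of *Uros*), against 26.5% of 32851 promoters of the same length. *Alas2* held AGATAA on the reverse strand from base -86 to -81, counted back from the start. *Cpox* held AGATAG from -91 to -86 and TGATAA from -86 to -81 on the reverse strand, overlapping by 1 base. *Uros* held AGATAG from -205 and TGATAA from -68 before its other annotated start, which lies inside the gene. No match was found for *Alas1*, *Alad*, *Urod*, *Ppox* and *Fam210b*. The word CCNCNCCC, close to the site of Klf1, was found on either strand in 7 of the 11 windows (63.6%), against 45.9% of promoters. The paired windows of *Alas1* and of *Alad* overlap. *Fam210b* held 5 matches and *Alas2* 4 (matches may overlap). The paired windows held 2 and 4 for *Alad*, 1 and 2 for *Alas1*, and 1 and 0 for *Uros*. *Urod*, *Cpox* and *Ppox* held none. The stretches from -150 to -51 of *Alas2* (chrX:150547267-150547366, plus strand) and *Cpox* (chr16:58670058-58670157, plus strand) show the GATA words, in capitals, of the member that rose most and of a member below the fold threshold. The words are a description of these letters, and binding was not measured.
Alas2: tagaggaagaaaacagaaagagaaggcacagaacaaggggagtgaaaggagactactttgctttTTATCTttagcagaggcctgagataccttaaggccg
Cpox: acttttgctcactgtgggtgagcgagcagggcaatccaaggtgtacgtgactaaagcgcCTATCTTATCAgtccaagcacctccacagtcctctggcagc

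Along the cytosolic steps, *Uros* rose, while *Alad* and *Urod* stayed below the fold threshold. *Alad*, which condenses aminolevulinate to porphobilinogen, was at 673, 610 and 678 CPM in control CFU-E and at 730, 793 and 975 CPM in the Kit-lo libraries (log2 fold change 0.35, SE 0.11, edgeR adjusted p = 0.029). The groups were apart, the fold of 1.27 was below the threshold, and the third Kit-lo library was the highest.

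*Uros*, which closes the ring of the porphyrin, was at 51.8, 53.5 and 54.4 CPM in control CFU-E and at 99.8, 116 and 112 CPM in the Kit-lo libraries. Every Kit-lo library was above every control library, with a fold of 2.05 (log2 fold change 1.04, SE 0.10, edgeR adjusted p = 4e-05). *Urod*, which trims the side chains of the ring, was at 480, 507 and 527 CPM and at 607, 591 and 632 CPM. Its groups were also apart, yet the fold was 1.21 (log2 fold change 0.27, SE 0.07, edgeR adjusted p = 0.015). The exons of *Alad*, *Uros* and *Urod* overlap no exon of another annotated gene. These 3 genes lie on chromosome 4 (62509169 to 62519918), chromosome 7 (133686243 to 133710072) and chromosome 4 (116989965 to 116994413), all on the minus strand.

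The mitochondrial end of the pathway showed 3 changes of nearly the same size, all below the fold threshold. *Cpox*, which oxidizes coproporphyrinogen, was at 49.6, 40.4 and 42.3 CPM in control CFU-E and at 55.6, 63.3 and 66.3 CPM in the Kit-lo libraries (log2 fold change 0.48, SE 0.12, edgeR adjusted p = 0.013). *Fech*, the ferrochelatase that inserts iron, was at 460, 455 and 454 CPM and at 605, 607 and 675 CPM (log2 fold change 0.46, SE 0.07, edgeR adjusted p = 0.00092). The groups of neither gene overlapped, and the 3 control libraries of *Fech* lay close together (SD 3.19 CPM). *Cpox* lies on the plus strand of chromosome 16 (58670292 to 58717636) and *Fech* on the minus strand of chromosome 18 (64452914 to 64490251).

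*Ppox*, which oxidizes protoporphyrinogen just before iron insertion, was at 127, 115 and 137 CPM in control CFU-E and at 168, 219 and 136 CPM in the Kit-lo libraries. The third Kit-lo library lay within the control range and the second far above it. The log2 fold change was 0.47 (SE 0.16, edgeR adjusted p = 0.04). Without the third Kit-lo library it was 0.63 (edgeR adjusted p = 0.0023), which passes the fold threshold. Without the second it was 0.295 (edgeR adjusted p = 0.11). The edgeR adjusted p was also 0.08 to 0.14 without each control library, 0.071 with a replicate block and 0.055 with no filter. Over its 15 alternatives the adjusted p ran from 0.0023 to 1.0, the highest in the test against a fold of 1.5. *Ppox* lies on the minus strand of chromosome 1 (171275990 to 171281186), and 17.5% of its exonic bases overlap *B4galt3* on the opposite strand.

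*Fam210b*, on the plus strand of chromosome 2 (172345565 to 172355749), rose in all Kit-lo libraries. It was at 45.4, 47.6 and 41.1 CPM in control CFU-E and at 232, 213 and 221 CPM in the Kit-lo libraries. The groups were far apart and the replicates close, with a 4.96-fold difference (log2 fold change 2.31, SE 0.09, edgeR adjusted p = 2.5e-07) that ranked 171 from the top of all genes tested. Its nearest genes in pattern were *Aunip* (0.12), *Tirap* (0.12) and *Mad2l1bp* (0.13), with log2 fold changes of 2.13, 2.43 and 2.18.

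**Figure D3:**
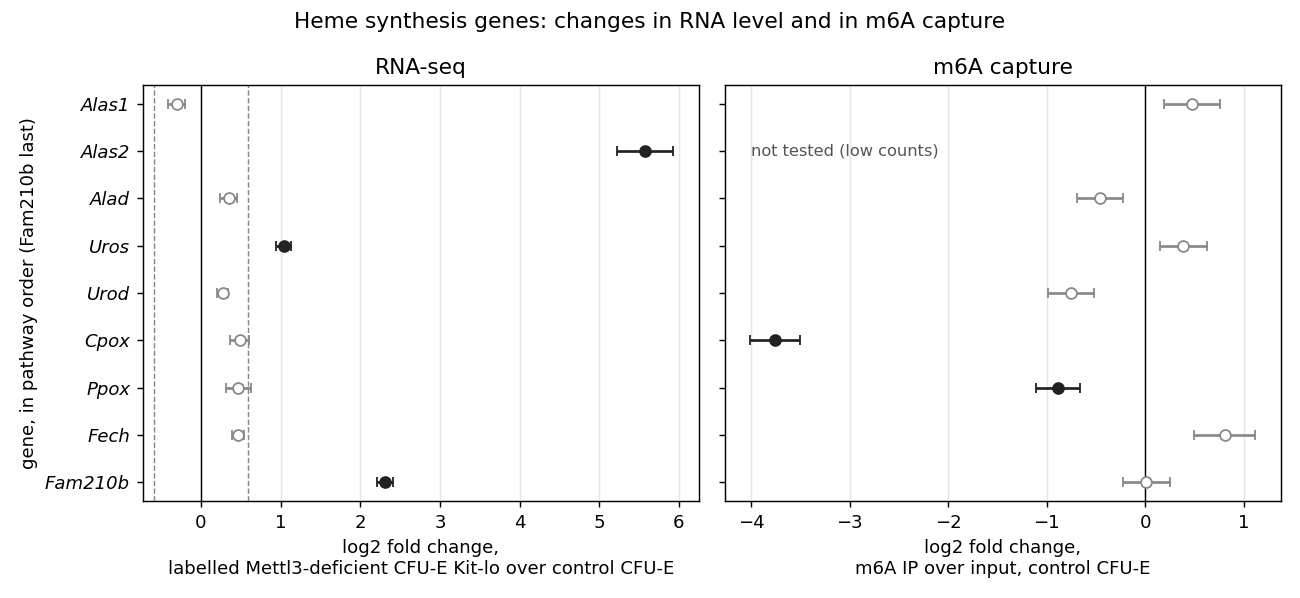
Log2 fold changes with their standard errors in pathway order, on the left Kit-lo over control CFU-E (3 and 3 libraries) and on the right m6A IP over input (2 and 2 libraries). Filled points passed the rule for a call, and dashed lines mark a fold of 1.5. *Alas2* stands out on the left at 5.58 and *Cpox* on the right at -3.76.

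The order of the levels per length differed between the groups mainly through *Alas2*, *Fam210b* and *Uros*. In control CFU-E the highest members were *Alad* at 834 ± 38.7 TPM and *Urod* at 811 ± 33.3 TPM (SD, n = 3), whose ranges overlapped. They were followed by *Fech* (213 ± 4.05 TPM), *Ppox* (132 ± 9.77 TPM), *Alas1* (93.8 ± 1.46 TPM) and *Uros* (89.0 ± 2.04 TPM), each apart from the next. *Cpox* (22.3 ± 2.47 TPM) and *Fam210b* (19.3 ± 1.73 TPM) overlapped, and *Alas2* was last at 2.31 ± 1.16 TPM, above 22.7% of the genes tested.

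In the Kit-lo libraries *Alad* (1119 ± 129 TPM) and *Urod* (1035 ± 15.8 TPM) were again the highest members and again overlapped, and *Fech* followed at 309 ± 7.84 TPM. *Ppox* (194 ± 51.8 TPM) and *Uros* (193 ± 14.9 TPM) overlapped, as did *Alas2* (115 ± 44.2 TPM) and *Fam210b* (101 ± 6.05 TPM). *Alas1* (80.04 ± 8.28 TPM) and *Cpox* (32.9 ± 2.27 TPM) came last. Lengths of the transcripts in use are not known, and with the longest coding transcript in place of the mean *Ppox* came above *Fech* in the Kit-lo libraries (216 against 214 TPM, ranges overlapping).

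The m6A capture asked which transcripts of control CFU-E were enriched by the antibody. Unfragmented RNA was captured and libraries were read from the 3' end, so IP over input is a value for a transcript and not for a site. *Cpox* and *Ppox* were lower in IP, 2 of the 8 members tested (25.0%), where 7.86% of all genes were lower and 7.90% higher. None of the 8 members was called higher (0 by edgeR, 0 by DESeq2, and 1, *Fech*, at an unadjusted p under 0.05). The IP and input libraries did not overlap for 3 members that were higher in IP, against 32.2% of all genes, and for 4 that were lower, against 28.7% of all genes. The median log2 fold change of the members was -0.22, and that of all genes tested was 0.06. Over all genes the split was 904 higher and 900 lower, which became 934 and 608 with library size only and 1451 and 754 with upper-quartile scaling. These 2 scalings moved the median of all genes by 0.16 and 0.13 on the log2 scale, and the values below are relative to TMM.

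*Cpox* was far lower in IP than any other member. Its counts were 20753 and 13077 in the input libraries and 2811 and 1085 in the IP libraries, or 915 and 735 CPM against 67.4 and 54.5 CPM. Both IP libraries were far below both input libraries, a 13.5-fold difference (log2 fold change -3.76, SE 0.26, edgeR adjusted p = 9.2e-06) that ranked 66 from the bottom of the 11447 genes tested. The log2 fold change stayed between -3.94 and -3.60 in the 12 alternatives run. *Cpox* was also the member whose level differed most between the experiments, since control CFU-E had 44.1 ± 4.86 CPM (SD, n = 3) in the RNA-seq and 825 ± 127 CPM (SD, n = 2) in the input, which were prepared by different methods and scaled separately. Of its exonic bases 3.06% overlap *Gpr15* on the opposite strand.

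*Ppox* was at 170 and 164 CPM in input and at 79.5 and 101 CPM in IP (log2 fold change -0.89, SE 0.22, edgeR adjusted p = 0.023). The call was lost when an input library or the IP library numbered 1 was left out (adjusted p of 0.15 without input 1, 0.077 without input 2 and 0.098 without IP 1, all edgeR, with a range of 0.00066 to 0.15 over 12 alternatives). *Urod*, at 661 and 720 CPM in input and 353 and 466 CPM in IP, just missed the threshold (log2 fold change -0.75, SE 0.23, edgeR adjusted p = 0.051), and DESeq2 gave an adjusted p of 0.016 (0.0019 to 0.28 over 12 alternatives). *Alad* was at 924 and 1024 CPM and at 608 and 810 CPM (log2 fold change -0.46, SE 0.24, edgeR adjusted p = 0.21). For these 3 genes both IP libraries were below both input libraries, and the second IP library was closer to input than the first.

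*Fech*, *Alas1* and *Uros* had values above 0 that did not pass the test. *Fech* was at 184 and 112 CPM in input and at 326 and 192 CPM in IP (log2 fold change 0.81, SE 0.31, edgeR adjusted p = 0.10), and both IP libraries were above both input libraries. Its value changed with single choices. The log2 fold change was 1.14 (edgeR adjusted p = 0.018) without the IP library numbered 2 and 0.93 (edgeR adjusted p = 0.049) with upper-quartile scaling, but 0.36 without IP 1 and 0.49 without input 2 (edgeR adjusted p = 0.5 for both, with a range of 0.00089 to 0.5 over 12 alternatives). *Alas1* was at 10.8 and 10.4 CPM in input and 17.4 and 12.0 CPM in IP (log2 fold change 0.47, SE 0.28, edgeR adjusted p = 0.28), and its value was 0.15 without IP 1 and 0.71 without IP 2. *Uros* was at 23.7 and 24.2 CPM in input and 33.7 and 28.9 CPM in IP (log2 fold change 0.39, SE 0.24, edgeR adjusted p = 0.29).

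The members that changed most in the Kit-lo libraries gave no call in the capture. *Fam210b* was at 47.5 and 46.4 CPM in input and at 40.9 and 54.0 CPM in IP, with the input libraries inside the IP range (log2 fold change 0.01, SE 0.24, edgeR adjusted p = 0.98), and the value was -0.02 with DESeq2 size factors, 0.16 with library size only and 0.15 with upper-quartile scaling. *Alas2* had 13 and 4 counts in input and 5 and 8 counts in IP (0.561 and 0.206 CPM by library size in input), too few to be tested. By qPCR after m6A capture from erythroblasts, a later stage, the paper reports high m6A on *Alas2* and *Fech* in control cells. There, *Mettl3* deletion lowered m6A on *Fech* but not on *Alas2*.

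**Figure D4:**
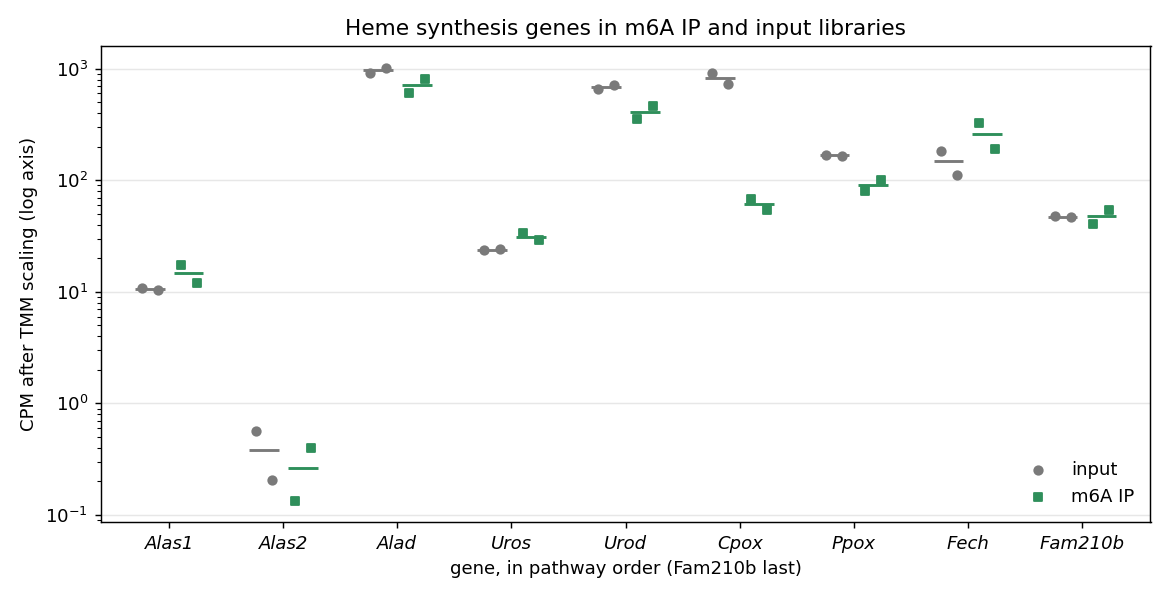
CPM after TMM scaling on a log axis (*Alas2* by library size) for the members in the 2 input and 2 m6A IP libraries of control CFU-E, with 1 point a library and a bar for each mean. *Cpox* falls from 915 and 735 CPM in input to 67.4 and 54.5 CPM in IP, and *Alas2* stays below 1 CPM in all 4.

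GGACT is the core of the sequence most often methylated by the m6A writer. It was counted in the longest coding transcript of each gene, where *Fech* held 6 copies, *Urod* and *Fam210b* 5, *Alas2* and *Alad* 4, *Uros* and *Ppox* 3, and *Alas1* and *Cpox* 1. Per kilobase, *Urod* (3.36) and *Alad* (3.21) held most and *Cpox* (0.323) and *Alas1* (0.294) fewest. *Fech*, the longest of these transcripts, held 0.913 per kilobase, beside a median of 1.03 over all genes tested with a coding transcript. Of all genes tested with a coding transcript 92.1% held at least 1 copy, as did 94.7% of those called higher in IP and 92.8% of those called lower. Shown are the single site of *Cpox* (base 1453 of 3097) and the 3 sites of *Ppox* (bases 175, 330 and 1526 of 1821), the members called lower in IP, with GGACT in capitals and 5' to 3' along the mRNA (GENCODE, GRCm38). The letters do not say whether a site was methylated.
Cpox: gccatccaaaGGACTgggtgcactg
Ppox site at 175: cggacaggatGGACTgctcctaggg
Ppox site at 330: acgatgggccGGACTgtgatagtac
Ppox site at 1526: cacacagttaGGACTgaaagaacca

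Genes for substrates and porphyrin transport and for iron supply moved in both directions, while none for heme export, breakdown and sensing was called lower. Of 14 genes for the pathway's substrates and for porphyrin transport, 5 rose and 2 fell in the Kit-lo libraries. Over all genes tested, 12.1% rose and 9.83% fell by the same rule. The porphyrin and mitochondrial transporters *Abcb6* and *Abcb10* (log2 fold changes 1.496, SE 0.08, and 1.47, SE 0.09) and *Tspo* (0.88, SE 0.10) rose most, at edgeR adjusted p values of 2.2e-06, 4.3e-06 and 0.00013. The other two, *Tmem14c* (0.77) and the glycine carrier *Slc25a38* (0.76), are named after their values were seen. *Suclg2* and *Suclg1*, subunits of the succinyl-CoA ligase, fell by 0.91 and 0.74 on the log2 scale (edgeR adjusted p = 5.9e-05 and 7.4e-05). In the capture, *Clpx*, *Abcb10* and *Sucla2* were higher in IP (1.36, 0.99 and 0.71), 3 of the 14, against 7.90% of all genes. *Clpx* encodes the unfoldase that acts on aminolevulinate synthase. Lower were 2 genes, *Tspo2* and *Pgrmc2* (-0.84 and -2.92), named after their values were seen, against 7.86% of all genes. Of these, *Sucla2* and *Tspo2* lay near the threshold (edgeR adjusted p = 0.048 and 0.043). In the capture, 4 genes of the list were called with DESeq2 size factors, with library size only and with upper-quartile scaling, and 6 by DESeq2.

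Of 16 tested genes for iron supply and iron-sulfur clusters, 4 rose and 2 fell in the Kit-lo libraries. Over all genes tested, 12.1% rose and 9.83% fell. *Slc25a37*, the mitoferrin that brings iron to *Fech*, rose from 12.8 ± 0.756 to 58.4 ± 9.70 CPM (SD, n = 3, log2 fold change 2.19, SE 0.16, edgeR adjusted p = 7.4e-06). *Glrx5* and the ferritin receptor *Ncoa4* rose by 1.04 and 0.98, as did the ferrireductase *Steap3* (0.83, named after its value was seen). *Glrx5* was low in the RNA-seq (4.70 ± 1.32 CPM in control and 9.68 ± 1.09 CPM in Kit-lo, SD, n = 3). In the input, prepared by a different method and scaled separately, it was at 1621 ± 121 CPM (SD, n = 2). The cluster assembly genes *Hscb* and *Lyrm4* fell by 1.07 and 0.93 on the log2 scale. In IP, *Slc25a37* and *Lyrm4* were higher (1.23 and 1.15), 2 of the 16, against 7.90% of all genes. *Glrx5* and *Pcbp1*, the latter named after its value was seen, were lower (-3.28 and -2.68), against 7.86% of all genes.

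Of 12 tested genes for heme export, breakdown and sensing, 3 rose in the Kit-lo libraries, against 12.1% of all genes. They were the heme-binding *Hebp1* (1.37), the heme-regulated kinase *Eif2ak1* (0.65) and the heme oxygenase *Hmox2* (0.63). *Aco1*, the iron-responsive RNA-binding protein, was the 1 gene of the list higher in IP (1.497, SE 0.33, edgeR adjusted p = 0.013), against 7.90% of all genes. Of 7 erythroid transcription factors, *Zfpm1* (1.46), *Nfe2* (0.67) and *Klf1* (0.59) rose, against 12.1% of all genes. *Klf1* lay at the edge of the fold threshold of 1.5, with a fold of 1.507. With upper-quartile scaling 2 genes of the list were called, and with library size only 4. *Gata1* had a log2 fold change of 0.07 (SE 0.08, edgeR adjusted p = 0.53). In IP, 2 of the 7 were lower, *Lmo2* and *Nfe2* (-2.09 and -1.20, *Lmo2* named after its value was seen), against 7.86% of all genes. The medians of the 4 lists in the RNA-seq were 0.23, 0.28, 0.23 and 0.58, beside 0.01 over all genes tested.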

How the data were processed

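The 6 RNA-seq libraries (Smart-seq2) and the 4 m6A libraries (SLIM-seq) of CFU-E were analysed, and the 6 ProE samples were not analysed here. The authors filtered reads with fastp 0.23.4, quantified transcripts with kallisto 0.48.0 and merged them to genes with tximport, per the methods and the submitters' processing notes, and deposited whole-number estimated counts per gene without normalization. The methods name mm10 and the processing notes list mm10 and GRCm39, and GRCm38 (mm10) was used here for lengths, coordinates and overlaps. Whether molecular identifiers or strand were used in the counting is not given in the sources used here. Replicates are separate samples by their labels, and p-values measure the spread between them, which may be technical.

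The counts were fitted over all genes in R 4.3.3 with edgeR 4.0.16 (filterByExpr, TMM, glmQLFit, glmQLFTest), 1 fit for each experiment, with Benjamini-Hochberg adjustment over all genes tested. Genes were called in the RNA-seq at a fold of at least 1.5 and an adjusted p under 0.05, and in IP over input at an adjusted p under 0.05. The SE is the log2 fold change divided by the square root of F. TPM were computed from counts and GENCODE lengths on GRCm38, with 99.9% of genes matched by symbol. Genes named beyond the members were the 3 largest called rises and falls of each list, those called higher in IP, and the 3 nearest in pattern to *Alas2*, *Alas1* and *Fam210b*. The members and lists were chosen with earlier results of these data known. Results for some genes under these rules are not reported here. The scripts were tested on simulated data. With edgeR, 82 of 100 simulated 2-fold changes were recovered in the RNA-seq and 46 of 100 in the m6A capture. All 100 simulated 4-fold changes were recovered in both. A member not called in the capture may thus still differ by about 2-fold. Alternatives were DESeq2 1.42.0, other scalings and filters, a replicate block and leaving out each library. Plots used matplotlib 3.10.9 in Python 3.11.15.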

Additional observations from a re-analysis of the deposited data

How the results depend on the processing

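The 3 members called in the RNA-seq (*Alas2*, *Uros* and *Fam210b*) kept their calls in all 15 alternatives run. The number of members called was 3 in each but 2, since *Ppox* joined them without the Kit-lo library numbered 3 (range 3 to 4 on leaving out each library) and 9 passed with no fold threshold. Over all genes, 2631 calls became 1147 when tested against a fold of 1.5, 4128 with no fold threshold, and 2180 to 2726 on leaving out each library. *Mettl3* ran from -0.1178 without the control library numbered 1 to 0.0027 without the Kit-lo library numbered 3. The difference in the log2 ratio of *Alas2* to *Alas1* ran from 5.542 to 6.325 on leaving out each library, and with the replicates paired by number the exact p was 0.25, the smallest for 3 pairs. The gap between the highest and the lowest member in Kit-lo was 5.08 on the log2 scale per length, 5.06 with the longest transcript and 3.75 in CPM without lengths.

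The m6A calls were less stable. The count of 2 members ran from 1 to 4 on leaving out each library, with 1 without input 1, input 2 or IP 1 and 4 without IP 2. Over all genes 1804 calls became 591 without input 1, 1173 without IP 1 and up to 2326 without IP 2. The replicate numbers are not known to pair the samples (correlations of same-numbered deviations -0.07 to 0.03 in the RNA-seq, and 0.21 with 2 pairs in the m6A capture). With a replicate block, 5 members were called in the capture (1 higher, *Fech*, at 0.80 with an edgeR adjusted p of 0.00089) and 3538 genes in all, and the block gave 3 members in the RNA-seq. *Fam210b* turned to -0.0226 with DESeq2, -0.0225 with DESeq2 size factors, -0.0004 with the block, and it ran from -0.2025 without IP 2 to 0.1844 without IP 1, with -0.0089 without input 2. On leaving out each library in IP over input, *Mettl3* ran from -0.0381 (without IP 1) to 0.2627 and *Kit* from -0.0259 (without input 2) to 0.9041. In IP over input, DESeq2 called 2208 genes in all, against 1804 by edgeR. It called 6 genes of substrates and porphyrin transport and 5 of iron supply and iron-sulfur clusters (5 and 4 by edgeR). It also called 2 of heme export, breakdown and sensing and 4 erythroid transcription factors (1 and 2 by edgeR). The cause of these changes was not tested. *Alas2* had too few counts in the capture to be tested.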
